A study of Mus musculus with 24 samples.

Results

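The genes described here encode 8 transcription factors that hepatocytes depend on for their identity, namely Hnf4a, Foxa1, Foxa2, Foxa3, Cebpa, Cebpb, Onecut1 and Prox1. They were chosen by name, as 8 of 22350 protein-coding genes. Every H3K27ac peak that overlapped a gene body or the 10 kb on either side of it was assigned to that gene. H3K27ac, acetylation of lysine 27 on histone H3, was mapped by ChIP-seq in whole livers of mice 8 weeks old, from both sexes of C57BL/6J, here B6, and of CAST/EiJ, here CAST. These are inbred strains of different mouse subspecies, and the labels give no treatment or engineered allele. There were 5 livers and 1 input control for each sex of each strain, 24 samples in all. The groups follow the sample titles. The labels also carry a strain entry that reads CAST for all females and B6 for all males, against the titles of the B6 females and the CAST males.

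The peak lists are described as made from the merged libraries of each group, and were taken as such. Their peak names carry the code of 1 library of the group, whereas the recovered background corresponds to between 1.47e+08 and 1.63e+08 fragments per list at the peak caller's mouse genome size. Each value below is therefore 1 value per list, without replicates, and no test between groups was possible. The comparisons ask how the marking of these genes varied with sex and with strain, for promoter regions (within 2.5 kb of an annotated transcript start) and distal regions apart. CAST reads were aligned to a CAST version of the genome and the coordinates converted to mm9, so a peak absent from a CAST list and one lost in mapping or conversion cannot be told apart.

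H3K27ac is deposited by the acetyltransferases p300 and CBP and is found at active promoters and enhancers. The 8 factors bind one another's promoters and enhancers as well as those of liver genes, forming a network that keeps itself active in the adult hepatocyte. The Foxa proteins can engage closed chromatin, the nuclear receptor HNF4A and the C/EBP proteins drive metabolic genes, and Onecut1 (also called HNF6) and Prox1 act in liver development as well as in the adult.

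On the autosomes and X the male lists held 79818 peaks in B6 and 90228 in CAST, and the female lists 82176 and 84645. The number of fragments stacked at each summit could be recovered from the deposited values for at least 99.7% of peaks in every list, and it was divided by the list's own genome-wide background of 16.8 to 18.7 fragments to give a relative summit coverage. The intervals on it cover counting error only. The labelled tissue was checked on marker genes. A promoter peak stood in all 4 lists for 8 of 8 members and for 7 of 8 hepatocyte markers, against 0 of 8 markers of other tissues, while between 60.9% and 62.9% of all protein-coding genes had one per list. Cholangiocyte markers had one in all lists for 3 of 5 genes, endothelial markers for 4 of 5, stellate markers for 1 of 5 and Kupffer cell markers for 1 of 5. Of the cholangiocyte markers, Krt19 and Krt7 had none in any list, Sox9 had coverage of 11.5, 8.50, 10.7 and 7.43, and Spp1 and Epcam lay between 2.07 and 5.35. Median promoter coverage was 18.5, 18.3, 21.2 and 17.3 for the members, counting a gene without a peak as 0 (B6 males, B6 females, CAST males, CAST females), 11.4, 10.9, 12.5 and 12.1 for hepatocyte markers, 2.07, 2.62, 4.16 and 2.97 for cholangiocyte markers and 3.38, 2.99, 3.77 and 3.74 for endothelial markers. Single markers stood above these medians. The endothelial marker Stab2 had 10.2, 10.5, 17.04 and 15.03, above the hepatocyte marker medians in both CAST lists. The stellate marker Reln had 8.93, 10.8, 7.54 and 5.88, and the Kupffer cell marker Csf1r 3.76, 4.28, 6.19 and 5.70. In both sexes Stab2, Kdr, Pecam1, Cdh5, Epcam and Csf1r were higher in CAST than in B6, and Sox9 and Reln were lower. In whole liver, fewer cells carrying a mark and less of the mark per cell cannot be told apart. The part of the minor cell types in the values below was not tested.

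All 8 genes were densely marked in all 4 lists. Values that follow in fours are in the order B6 males, B6 females, CAST males, CAST females. The windows of the 8 genes spanned 327 kb and held 73, 75, 76 and 73 peaks, each gene having at least 4. Peaks covered 19.3%, 17.2%, 19.98% and 17.5% of the windows. The median over all protein-coding genes was 4.82%, 4.68%, 5.10% and 4.66%. Cebpa had the highest covered share of the 8, between 26.0% and 34.3% of its window, and ranked at or above the 99.5th percentile of all genes in every list. Foxa1, Foxa2, Foxa3 and Cebpb ranked between the 95.6th and the 99.2nd percentile, and Hnf4a between the 92.5th and the 95.8th. Prox1 and Onecut1 ranked lowest by share, at the 84.9th to 89.3rd and the 80.0th to 83.7th percentile. By covered length in kb the order was another, with Hnf4a highest, at the 97.8th to 98.4th percentile, Prox1 next, at the 94.1st to 95.2nd, and Cebpb between the 74.8th and the 82.1st. Both orders depend on window length. Among the 200 genes nearest in window length, Hnf4a ranked at the 99th to 100th percentile and Cebpa at the 98.5th to 99.5th. Prox1 ranked at the 91.5th to 94.5th, Onecut1 at the 80th to 85th and the others between the 92nd and the 99th.

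**Figure D1:**
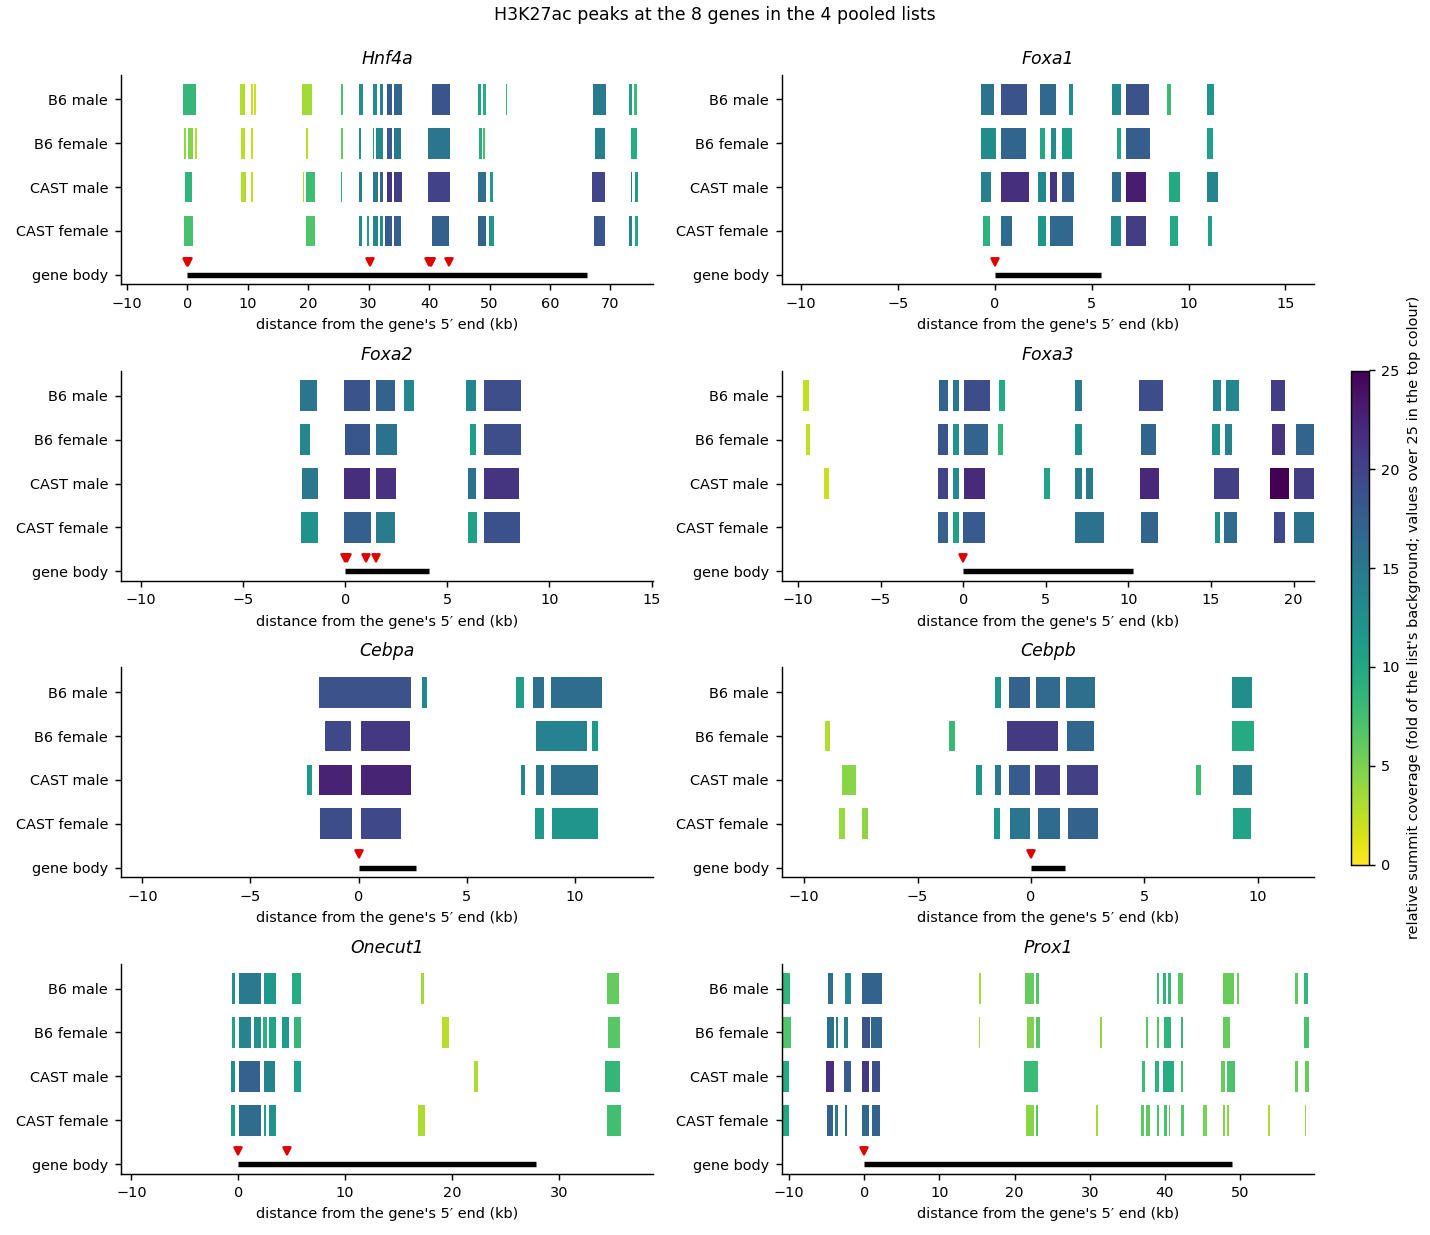
Positions of the H3K27ac peaks at each gene (x axis, kb from the gene's 5′ end, running with transcription) in each pooled list (rows), coloured by relative summit coverage; the black bar is the gene body and red triangles are annotated transcript starts. Peaks at Hnf4a and Prox1 spread along the gene. At Cebpa, Foxa1 and Foxa3 they stood around the start and also in distal regions beyond the gene.

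The members carried much of the mark at places called in every list. Their peaks merged into 86 regions, 36 promoter and 50 distal, so 58.1% were distal, against 75.9% of all 119348 regions. That share depended on the window and was 74.3% with 50 kb on each side of the genes. Of the 86, 48 were called in all 4 lists, which is 55.8%, against 40.4% of all regions. Among promoter regions 27 of 36 (75%) were called in all lists, against 63.0% of all promoter regions, and among distal regions 21 of 50 (42.0%), against 33.3%. A further 21 regions were called in a single list, 5 promoter (13.9%) and 16 distal (32.0%), against 18.2% of all promoter and 36.9% of all distal regions. Those were small at the members, with median widths of 354 and 264 bp, as they were over all regions, at 293 and 296 bp. Regions called in all 4 lists had median widths of 1323 and 1459 bp at the members, and 1538 and 1255 bp over all regions.

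Male lists covered more bases at the members than female lists in both strains. The covered length was 63.2 kb in B6 males and 56.2 kb in B6 females, a ratio of 1.12, beside 1.05 for all peaks. It was 65.3 kb in CAST males and 57.2 kb in CAST females, a ratio of 1.14, beside 1.12 for all peaks. In CAST the members thus stood close to the genome as a whole. Between strains the CAST to B6 ratio was 1.03 in males, equal to that of all peaks at this precision, and 1.02 in females, beside 0.972 for all peaks. The promoter and distal parts went opposite ways between strains: promoter bases were lower in CAST, at 0.979 of B6 in males and 0.913 in females, and distal bases higher, at 1.12 and 1.20. Over all peaks the promoter ratios were 1.02 and 0.976, and the distal ratios 1.04 and 0.970. Single genes departed from the members' sums. In females the distal ratio was 1.51 at Hnf4a and 1.53 at Foxa3, and 0.969 at Cebpa and 0.869 at Cebpb. In males the distal ratio was 0.791 at Cebpa, 1.94 at Cebpb and 1.32 at Onecut1, and the promoter ratio was 1.09 at Foxa1 and at Cebpb. Between the sexes, too, single genes did not all follow the sum. Cebpa covered more in males in both strains (1.26 and 1.16), as did Prox1 (1.13 and 1.23), Hnf4a (1.18 and 1.10), Foxa3 (1.16 and 1.10) and Foxa1 (1.06 and 1.31). Foxa2, Cebpb and Onecut1 had ratios on opposite sides of 1 in the strains.

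**Figure D2:**
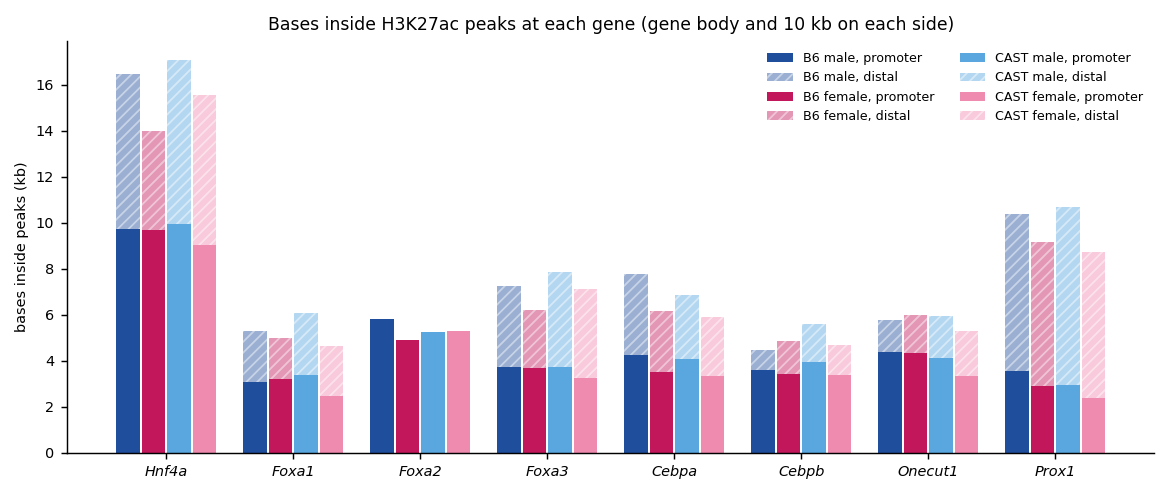
Bases inside peaks (y axis, kb) at each gene in the 4 pooled lists, with promoter regions solid and distal regions hatched; each bar is 1 list, so there are no error bars. Hnf4a had the most covered bases, 14 to 17.1 kb. Foxa2 had no region classed as distal, as those beyond its 3′ end lay near the start of a neighbouring transcript.

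Signal was high in coverage and low in the authors' fold enrichment. The members' peaks had a median relative summit coverage of 12.8, 11.2, 14.6 and 12.2, while all peaks had medians of 4.49 to 4.58. More of the members' peaks were promoter peaks, 45.2 to 50.7% against 27.9 to 29.1% of all peaks. Within promoter peaks the medians were 15.5, 13.6, 17.9 and 15.8 against 8.97 to 9.90, and within distal peaks 8.61, 8.34, 10.2 and 9.86 against 3.797 to 3.88. By score the members' promoter peaks ranked lower than other promoter peaks, with median percentiles of 71.0 to 74.7 against 76.1 to 77.7, and their distal peaks higher, with 47.0 to 55.8 against 42.1 to 42.4. The median fold enrichment ran the other way, at 2.0004, 2.12, 2.06 and 2.03 for members against 2.53, 2.504, 2.57 and 2.57 for all peaks. Few members' peaks reached the top 10% of their list by score, namely 0, 2, 1 and 3. All of these lay in the Foxa3 window, most of them over the starts of its neighbours Irf2bp1 and Sympk. The local background that divides the fold enrichment was 5.54 to 7.27 times the genome-wide background at the members' peaks, and 1.57 to 1.60 times at all peaks. Over all B6 male peaks this local background rose with the share of the surrounding 10 kb inside peaks, from a median of 1.00 where that share was below 5% to 6.57 where it was 40 to 50%, while summit coverage rose from 2.45 to 12.9. Fold enrichment rose from 2.20 to 2.88 at shares of 10 to 20% and fell to 1.92 at 40 to 50%. The members' peaks had a median share of 24.7 to 28.6%, against 13.97 to 14.9% for all peaks. At shares of 20 to 30%, where the members' medians lie, all B6 male peaks had a median background of 2.997 and fold enrichment of 2.73. The members' medians in that list were 6.14 and 2.0004, higher in background and lower in fold enrichment. Both measures are used below. How far the input entered the local background was not tested.

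**Figure D3:**
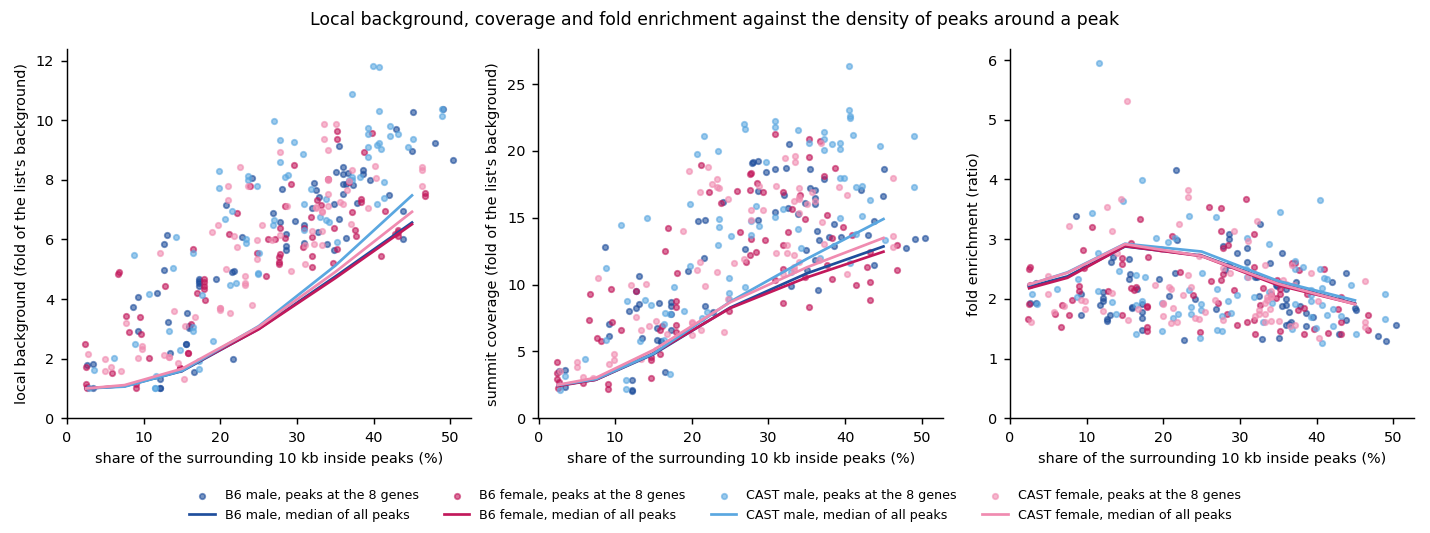
Local background, summit coverage (both as fold of the list's genome-wide background) and the authors' fold enrichment (y axes) against the share of the surrounding 10 kb inside peaks (x axes, %). Points are peaks at the 8 genes and lines are medians of all peaks of each list in bins up to 50%. Points lie mostly above the lines for background and coverage and mostly below them for fold enrichment.

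Regions called in 1 sex were no more frequent at the members than elsewhere. In B6, 10 of 72 regions (13.9%) were called in males and not in females, against 17.4% of all B6 regions, and 7 (9.72%) in females and not in males, against 17.5%. In CAST, 12 of 73 (16.4%) were male-only, against 21.5%, and 8 (10.96%) were female-only, against 14.1%. Most were weak, with median score percentiles of 25.6, 9.44, 20.5 and 9.38 in these 4 classes, beside 17.6, 16.9, 18.8 and 16.2 for all regions of each class. Only 3 of these calls lay in the upper part of their list by score. In the full lists 17 of 72 regions in B6 and 20 of 73 in CAST were sex-only, 23.6% and 27.4%, against 34.9% and 35.5% of all regions. With each list limited to its top 50%, B6 had 3 sex-only regions of 42 (7.14%), against 23.4% of all, and CAST had 10 of 48 (20.8%), against 24.3%, most of which were not sex-only in the full lists. With lists of equal length CAST had 12 of 65 (18.5%), against 32.4%.

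Of 59 member regions called in both strains, 4 (6.78%) were sex-only in the same direction in both, 1 at Cebpa and 3 at Prox1, close to the 6.26% of all such regions. The Cebpa region, 7.5 kb downstream of the 5′ end at chr7:35911580-35912029, was male-only at a relative coverage of 11.1 in B6 and 13.7 in CAST, which were the 5.32nd and the 30.4th percentile by score. At Prox1, a region 3.7 kb upstream of the 5′ end (chr1:191998058-191998397) was female-only at 13.4 in B6 and 14.8 in CAST (43.6th and 50.9th percentile), and an intronic region at chr1:191956579-191957108 was female-only at 6.42 and 6.24 (6.34th and 23.1st). The third, beyond the 3′ end at chr1:191936830-191937210, was male-only at 6.15 and 5.85 (46.9th and 52.2nd). Each of the 4 had a region called in all lists within 1 kb of it. Among the other sex-only regions, the 3 with the highest score percentile were a B6 female-only region of Onecut1 at chr9:74713866-74714487 (coverage 11.3, 55.5th percentile), a B6 male-only region of Foxa2 at chr2:147869331-147869836 (13.5, 41.4th percentile) and a region in an intron of Hnf4a at chr2:163341307-163342273 that was male-only in CAST (2.87, 40.8th percentile). The Onecut1 and Foxa2 regions had no call in CAST, and the Hnf4a region was called in both sexes of B6.

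Strain-only regions, which both sexes of a strain had and the other strain lacked, were rare at the members. B6 had 3 of 55 (5.45%), against 8.4% of all such B6 regions, and CAST had 3 of 53 (5.66%), against 11.8%. The B6 regions were at Foxa3, at chr7:19618164-19618579 inside the neighbouring gene Sympk (coverage 2.34 in males and 2.30 in females) and in a Foxa3 intron at chr7:19606374-19606762 (9.91 and 8.61), and at Prox1 in an intron at chr1:191979012-191979350 (3.59 and 3.37). The CAST regions were intronic in Hnf4a at chr2:163382531-163383205 (11.4 and 11.7), upstream of Cebpb inside Tmem189 at chr2:167505957-167506696 (4.44 and 3.86) and intronic in Prox1 at chr1:191957249-191957678 (7.93 and 6.30). When peaks up to 500 bp apart were joined, CAST had 0 strain-only regions at the members. Those 3 calls thus rest on how neighbouring peaks were split.

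Where a region was called in both lists compared, the signal at the members seldom differed by much. Male to female in B6, the median fold enrichment ratio over 55 regions was 0.970, beside 0.992 for all regions. The summit coverage of those regions had a median ratio of 1.10, beside 1.03 for all, so the direction depended on the measure. In CAST the ratios over 53 regions were 1.00 by fold enrichment, beside 1.05, and 1.21 by coverage, beside 1.12. From B6 to CAST the ratios over 56 regions in males were 1.07 by fold enrichment, beside 1.06, and 1.18 by coverage, beside 1.09. In females, over 50 regions, they were 1.03, beside 1.01, and 1.02, beside 1.00. The male and female comparisons, and the strain comparisons, share lists and are not independent of one another.

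Regions past 1.5-fold from the median ratio of all regions were counted for each comparison. By fold enrichment these were 1 of 55 male to female in B6, against 1.35% of all regions, 0 of 53 in CAST, against 1.61%, 1 of 56 from B6 to CAST in males, against 3.17%, and 2 of 50 in females, against 4.29%. By summit coverage they were 1 of 55, against 4.44%, 0 of 53, against 5.35%, 2 of 56, against 9.18%, and 4 of 50, against 12.9%. Hnf4a held 3 of the 5 regions concerned, and Prox1 and Foxa1 held 1 each. At the 15 strongest regions described below, the direction differed between coverage and fold enrichment in 19 of 60 ratios, namely 7 of 15 male to female in B6, 5 in CAST, 3 from B6 to CAST in males and 4 in females. Ratios below are of coverage unless fold enrichment is named, and the intervals leave out the median shift of all regions, which was largest for males over females in CAST, at 1.12.

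**Figure D4:**
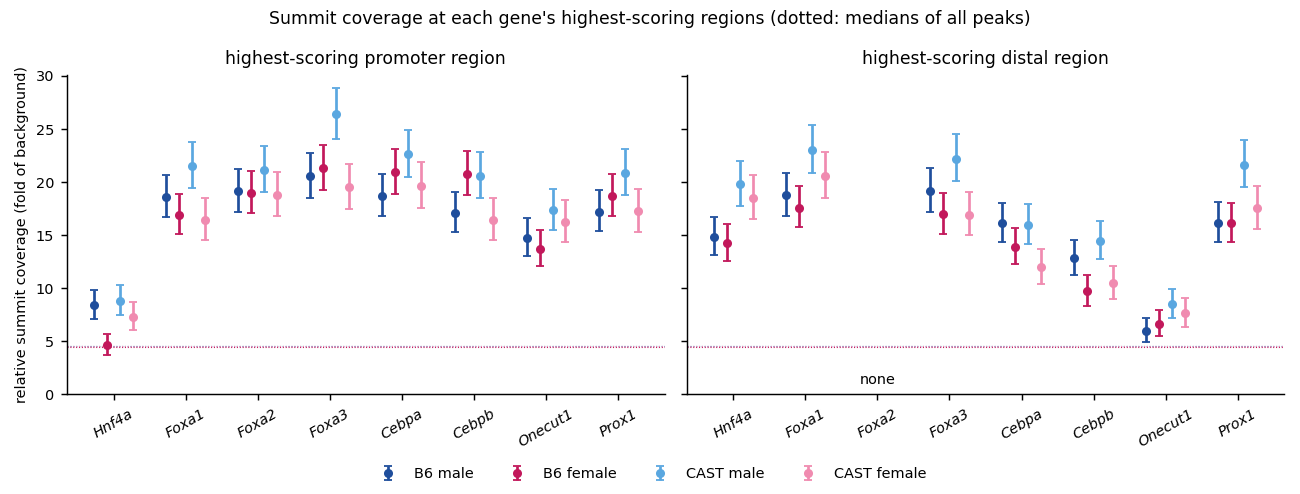
Relative summit coverage (y axis, fold of the list's background) of the promoter and the distal region of each gene with the highest score percentile in any of the 4 pooled lists; bars are 95% intervals for counting error and dotted lines the medians of all peaks (4.49 to 4.58). The Hnf4a promoter at the 5′ end and the distal region of Onecut1 were the weakest, and Foxa2 has no region classed as distal.

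Hnf4a, the nuclear receptor at the centre of the network, lies on the plus strand of chromosome 2 (ENSMUSG00000017950.9, chr2:163332544-163398646, mm9). It has a promoter at its 5′ end, known as P2 and used in embryonic liver and pancreas, and another, known as P1, 40.4 kb downstream, which is the main one in adult liver. Peaks covered 16.5, 14, 17.1 and 15.6 kb. The sequences 250 bases upstream of the starts are given because the promoters of the pair differed in acetylation in every list. P2 is at chr2:163332294-163332543 and P1 at chr2:163372673-163372922, both plus strand, and the capitals in P2 mark the only match in either to the searched motifs, the ONECUT letters ATTGAT on the minus strand from 10 bases upstream of the start. The first bases of the P1 window overlap an exon of a noncoding Hnf4a transcript.
Hnf4a P2: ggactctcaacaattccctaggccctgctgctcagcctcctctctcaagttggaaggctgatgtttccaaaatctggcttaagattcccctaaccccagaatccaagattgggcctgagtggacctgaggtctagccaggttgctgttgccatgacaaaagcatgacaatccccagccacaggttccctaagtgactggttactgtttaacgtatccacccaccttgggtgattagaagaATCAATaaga
Hnf4a P1: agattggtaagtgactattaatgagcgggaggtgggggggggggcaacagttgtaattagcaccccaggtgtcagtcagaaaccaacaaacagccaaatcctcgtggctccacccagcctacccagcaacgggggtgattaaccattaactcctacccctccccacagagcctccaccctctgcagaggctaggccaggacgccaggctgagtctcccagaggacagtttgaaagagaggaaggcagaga

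The P1 region (chr2:163372289-163376062) was the stronger of the pair in every list, with relative coverage of 18.4, 15.2, 20.1 and 17.4. The P2 region (chr2:163331855-163334152) had 8.39, 4.60, 8.77 and 7.25. The B6 female list was the lowest at P2 and the only one in which the P2 start lay between peaks rather than inside one. By counts, 154 fragments at the P2 summit in B6 males against 86 in B6 females gave a ratio of 1.82 (95% interval 1.39 to 2.40), with fold enrichment of 4.16 against 2.69. In CAST the male to female ratio was 1.21 (0.949 to 1.55). Between strains it was 1.58 in females (1.19 to 2.10) and 1.05 in males (0.832 to 1.32). Fold enrichment was 5.94 in CAST males and 5.31 in CAST females, and by that measure P2 exceeded P1, which had 2.43 to 2.76, in every list. The local background that enters fold enrichment was 1.32 to 1.97 times the genome-wide level at P2 and 6.11 to 8.01 times at P1.

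Further into the gene, an intronic region 20 kb from the 5′ end (chr2:163351484-163353684) was higher in CAST. Its coverage was 3.43 in B6 males and 2.73 in B6 females, and 7.82 and 6.89 in CAST males and females. The CAST to B6 ratio was 2.28 (1.68 to 3.12) in males and 2.53 (1.80 to 3.59) in females. By fold enrichment it was 1.84 in males and 1.45 in females, the latter inside 1.5-fold. A region 48.8 kb in (chr2:163380575-163382033) had 10.7 and 9.30 in B6 against 16.03 and 16.94 in CAST, past 1.5-fold by coverage in females alone, at 1.82 (1.502 to 2.21), and at 1.14 by fold enrichment. The strongest distal region of Hnf4a lay beyond its 3′ end, 68.1 kb from the 5′ end at chr2:163399545-163401769, with 14.8, 14.2, 19.8 and 18.5. By coverage the CAST lists were again higher, at ratios of 1.34 (1.14 to 1.57) in males and 1.30 (1.10 to 1.54) in females. By fold enrichment the direction turned, at ratios of 0.987 and 0.847. The middle 300 bases of this region (chr2:163400508-163400807, plus strand) and of the region 20 kb in (chr2:163352435-163352734, plus strand) are shown as the strongest distal region and as the one whose coverage differed most between strains. These are mm9, that is B6, bases. Capitals mark ATTGAT, found at 2 places in the first and at 0 in the second. Over its whole length each of the regions held it at 2 places.
Hnf4a strongest distal: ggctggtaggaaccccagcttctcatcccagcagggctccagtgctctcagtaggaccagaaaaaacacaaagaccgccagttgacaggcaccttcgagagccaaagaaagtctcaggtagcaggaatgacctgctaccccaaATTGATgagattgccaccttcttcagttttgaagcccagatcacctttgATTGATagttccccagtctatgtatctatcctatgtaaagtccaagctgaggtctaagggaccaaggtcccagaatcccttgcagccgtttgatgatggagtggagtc
Hnf4a intronic, higher in CAST: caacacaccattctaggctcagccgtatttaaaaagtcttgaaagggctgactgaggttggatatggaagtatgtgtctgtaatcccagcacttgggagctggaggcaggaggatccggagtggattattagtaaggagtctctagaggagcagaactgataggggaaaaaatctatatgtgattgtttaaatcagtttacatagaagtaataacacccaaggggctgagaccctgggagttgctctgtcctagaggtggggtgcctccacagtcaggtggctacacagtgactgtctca

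**Figure D5:**
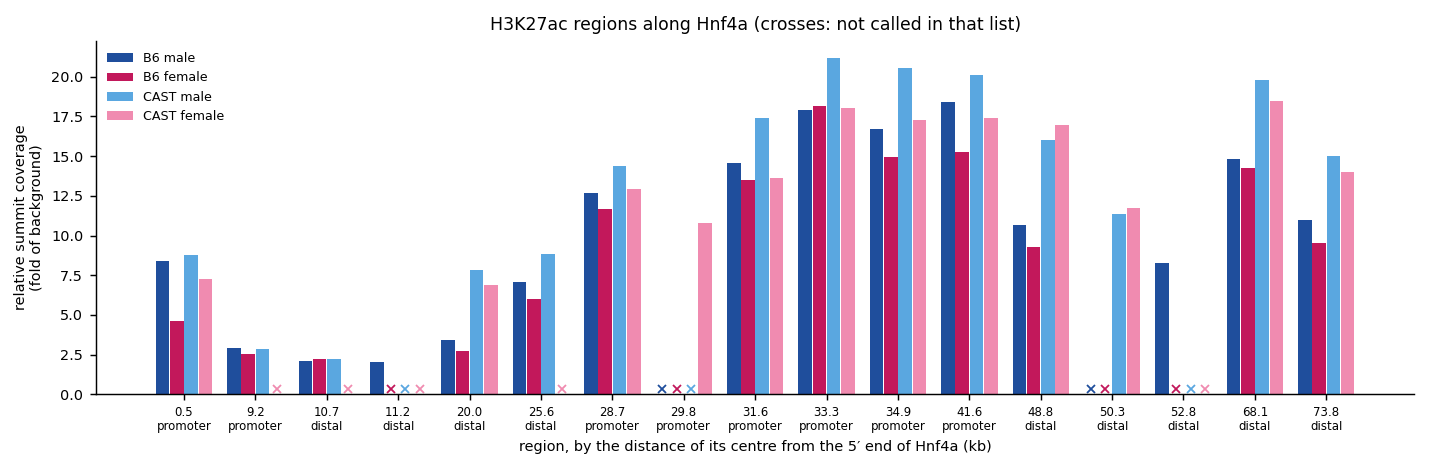
Relative summit coverage (y axis, fold of the list's background) of each of the 17 regions at Hnf4a, ordered by the distance of their centre from the gene's 5′ end (x axis, kb, with their class); bars are the 4 pooled lists and crosses mark lists without a call. P2 is the region at 0.5 kb and P1 the one at 41.6 kb. Among regions called in all lists, both CAST bars exceed both B6 bars at 20, 28.7, 34.9, 48.8, 68.1 and 73.8 kb.

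Foxa1, a forkhead pioneer factor, lies on the minus strand of chromosome 12 (ENSMUSG00000035451.6, chr12:58641618-58647108). Peaks covered 5.30, 4.99, 6.08 and 4.65 kb. Its promoter bases were fewest in CAST females, with 3.09, 3.19, 3.38 and 2.47 kb. The region over the start (chr12:58647030-58647836) was also weakest there, with relative coverage of 15.5, 12.9, 14.2 and 8.91. The CAST to B6 ratio in females was 0.689 by coverage (0.558 to 0.848), inside 1.5-fold, and 0.657 by fold enrichment, past it. The highest-scoring promoter region, over the gene body at chr12:58645334-58646788, had 18.6, 16.9, 21.5 and 16.4, so the females of the strains were close there, at a ratio of 0.971 (0.823 to 1.14). The strongest distal region, 7.4 kb from the 5′ end beyond the gene (chr12:58639106-58640358), had 18.7, 17.6, 23.1 and 20.6. The upstream bases (chr12:58647109-58647358, minus strand) are shown because they lie in the region that was low in CAST females and hold FOXA letters (TGTTTAC, here on the reverse strand from 131 bases upstream, in capitals). Among the 300-base windows at the members' starts these were the only ones. Of the wider promoter regions, that of Prox1 held 1. Hnf4a held 3, in intronic regions 9.2 and 31.6 kb into the gene, and none in its P2 or P1 region. The region at 9.2 kb counts as promoter through the start of a U6 gene.
Foxa1: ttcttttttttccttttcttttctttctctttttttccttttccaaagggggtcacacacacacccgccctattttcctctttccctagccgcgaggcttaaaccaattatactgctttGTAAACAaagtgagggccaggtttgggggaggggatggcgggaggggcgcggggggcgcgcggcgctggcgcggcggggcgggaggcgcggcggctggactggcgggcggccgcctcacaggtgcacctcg

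Foxa2, the forkhead factor that also governs bile acid and fasting genes, lies on the minus strand of chromosome 2 (ENSMUSG00000037025.5, chr2:147868613-147872705). All 6 of its regions were classed as promoter regions, 5 of them called in every list. Those 6.2 and 7.7 kb from the 5′ end lie beyond the gene. They count as promoter only through the start of the neighbouring transcript 9030622O22Rik. Peaks covered 5.82, 4.89, 5.25 and 5.31 kb. The region over its start (chr2:147871451-147872768) had relative coverage of 18.6, 18.3, 21.8 and 17.4. The highest-scoring region of the window was at the start of the neighbouring transcript 9030622O22Rik, 7.7 kb from the 5′ end (chr2:147864095-147865923), with 19.1, 18.98, 21.1 and 18.8. Its 4 ratios between sexes and strains lay between 0.989 and 1.13. The start of Foxa2 lay inside a peak in all 4 lists. Its upstream bases (chr2:147872706-147872955, minus strand) hold ATTGAT, in capitals, from 213 bases upstream of the start, and are shown as the other member promoter with ONECUT letters.
Foxa2: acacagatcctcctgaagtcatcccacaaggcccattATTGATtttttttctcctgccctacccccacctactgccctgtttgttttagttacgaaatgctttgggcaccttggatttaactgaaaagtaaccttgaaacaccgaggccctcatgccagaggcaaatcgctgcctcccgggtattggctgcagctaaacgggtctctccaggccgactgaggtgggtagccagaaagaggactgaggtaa

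Foxa3, the forkhead factor of the adult liver with roles in glucose metabolism, lies on the minus strand of chromosome 7 (ENSMUSG00000040891.5, chr7:19598631-19608887), with the genes Sympk and Irf2bp1 in its window. Peaks covered 7.23, 6.22, 7.85 and 7.13 kb. The region just inside the gene (chr7:19607275-19608875) had relative coverage of 19.2, 17.1, 21.99 and 17.9. The highest-scoring region, at the start of Irf2bp1 (chr7:19589175-19590311), had 20.5, 21.3, 26.4 and 19.5, the CAST male value being the highest of any region of the 8 genes. Males exceeded females there in CAST, with a ratio of 1.35 (1.17 to 1.56), and not in B6, at 0.965 (0.836 to 1.11). The strongest distal region, between Foxa3 and Irf2bp1 at chr7:19596810-19598225, had 19.2, 16.95, 22.2 and 16.9. The male value was again above the female value in CAST, at a ratio of 1.31 (1.12 to 1.53), and in B6 the interval included 1 (1.13, 0.969 to 1.32).

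Cebpa, the leucine zipper factor that drives metabolic genes in resting hepatocytes, lies on the plus strand of chromosome 7 (ENSMUSG00000034957.9, chr7:35904312-35906945). It had the widest promoter region, chr7:35902470-35906729, which was 1 unbroken peak of 4.26 kb in B6 males and 2 peaks in each of the other lists. Its relative coverage was 18.7, 20.9, 22.6 and 19.6. The order of the sexes differed between strains, but both intervals of the male to female ratio included 1 (0.893, 0.771 to 1.04, in B6; 1.15, 0.994 to 1.34, in CAST). The distal region 9.7 kb from the 5′ end (chr7:35912392-35915558) had 16.1, 13.9, 15.9 and 11.9. The male to female ratio was 1.16 (0.978 to 1.37) in B6 and 1.33 (1.11 to 1.60) in CAST by coverage, and 0.972 and 0.985 by fold enrichment. Beside it lay the male-only region at chr7:35911580-35912029. The distal covered length of Cebpa was 3.50 kb in B6 males against 2.63 kb in B6 females, and 2.77 against 2.55 kb in CAST.

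Cebpb, the leucine zipper factor of the acute phase response and liver regeneration, lies on the plus strand of chromosome 2 (ENSMUSG00000056501.3, chr2:167514415-167515918). Peaks covered 4.47, 4.86, 5.61 and 4.67 kb. Its promoter region (chr2:167513377-167515699) had relative coverage of 17.1, 20.7, 20.6 and 16.4. The sexes were ordered in opposite ways, with male to female ratios of 0.824 (0.708 to 0.959) in B6 and 1.26 (1.07 to 1.47) in CAST. The CAST interval included the 1.12 of all regions. By fold enrichment the ratios were 0.832 in B6 and 1.05 in CAST, the latter equal to that of all regions at this precision. The distal region 9.4 kb from the 5′ end (chr2:167523301-167524248) had 12.8, 9.68, 14.5 and 10.5. There males were higher in both strains, at 1.32 (1.08 to 1.61) in B6 and 1.38 (1.14 to 1.68) in CAST, and at 1.20 and 1.07 by fold enrichment. Of the 10 regions of Cebpb, 3 were called in every list and 5 in only 1. Tmem189, the gene upstream, held 6 of the 10, and none of those 6 was called in all lists.

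Onecut1, the cut homeobox factor HNF6, lies on the plus strand of chromosome 9 (ENSMUSG00000043013.7, chr9:74709728-74737591). Its signal was concentrated in the first 6 kb, and the remaining gene held only weak regions that were each called in 1 or 2 lists. Peaks covered 5.76, 5.97, 5.95 and 5.31 kb. The region just inside the start (chr9:74709762-74711850) had relative coverage of 14.8, 13.7, 17.3 and 16.2. In every list this was the lowest of the 8 genes' highest promoter values, with P1 standing for Hnf4a. The distal region 35.1 kb from the 5′ end (chr9:74744033-74745545) had 5.99, 6.63, 8.49 and 7.61. The CAST to B6 ratio was 1.42 (1.10 to 1.83) in males and 1.15 (0.889 to 1.48) in females. An intronic region 17.2 kb in (chr9:74726531-74727238) was male-only in B6, at 3.54, and female-only in CAST, at 3.03.

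Prox1, a homeobox factor of liver growth that is also the master factor of lymphatic endothelium, lies on the minus strand of chromosome 1 (ENSMUSG00000010175.6, chr1:191945660-191994559). It held 20 regions, 18 of them distal and 10 called in all lists. Peaks covered 10.4, 9.15, 10.7 and 8.72 kb. The promoter region (chr1:191992149-191994881) had relative coverage of 17.2, 18.7, 20.9 and 17.2, and the strongest distal region, 4.6 kb upstream inside the lincRNA gene Gm17566 (chr1:191998621-191999649), had 16.2, 16.1, 21.7 and 17.5. Both were highest in CAST males by coverage, whereas the promoter region was highest in CAST females by fold enrichment (1.88, 2.14, 2.06 and 2.21). Along the gene body the regions were weaker, from 5.77 to 8.71 in the B6 male list for those called in all 4. The region farthest past the 3′ end (chr1:191935390-191935972) was lower in CAST, with 8.55 and 7.17 in B6 males and females against 5.79 and 4.04 in CAST. Its CAST to B6 ratio was 0.678 (0.523 to 0.874) in males and 0.564 (0.415 to 0.761) in females. By fold enrichment it was 0.747 and 0.790, inside 1.5-fold in both sexes.

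At several starts the peaks stood on both sides of a short interval without a call. Such a gap was present in all 4 lists at Foxa3 (268, 292, 288 and 247 bp) and Onecut1 (317, 333, 334 and 362 bp). It was present in 3 lists at Foxa1 (382, 496 and 599 bp, the B6 female start being inside a peak), Cebpa (445, 419 and 407 bp, the B6 male start being inside) and Cebpb (236, 219 and 373 bp, the B6 female start being inside). The starts of Foxa2 and Prox1 lay inside a peak in all lists. Hnf4a P2 had a gap, of 329 bp, in B6 females only. In all, 4, 4, 5 and 5 of the 8 gene 5′ ends lay in a gap and the rest inside a peak. Over all protein-coding genes, gaps made up 11.7%, 14.5%, 14.01% and 17.4% of the 5′ ends that lay in a gap or a peak, with median gaps of 298 to 313 bp.

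Other factors of the same network had promoter coverage in a range that included the members. All 16 genes of a list of further hepatocyte factors (Onecut2, Nr5a2, Hhex, Gata4, Gata6, Tbx3, Cebpd, Cebpg, Rxra, Nr1h4, Ppara, Creb3l3, Xbp1, Klf15, Atf5 and Nr2f2) had a promoter peak in all 4 lists. Their highest promoter coverage had medians of 20.4, 17.5, 23.3 and 18.7 and ran from 9.63 to 33.7. The members lay within that range, from 13.7 to 22.6, once each gene's strongest promoter region near its own starts was taken. By score, 5, 5, 7 and 5 of the 16 had a promoter peak in the top 10% of its list, against 0, 1, 0 and 1 of the 8 members. Of all protein-coding genes 35.5%, 36.0%, 38.2% and 35.6% had one, close to the share of the 16 and above that of the members. In B6 females the peak counted for the members was at Foxa3 and lay over the start of its neighbour Sympk. The region just inside Foxa3 was at the 87.7th percentile in that list. The share of the window covered by peaks was lower than at any member in every list for Cebpg and Gata6, which ranked between the 67.9th and the 73.7th and between the 66.9th and the 76.5th percentile of all genes. Other genes of the list were as densely covered as members. Klf15, Nr2f2, Creb3l3 and Hhex ranked above Prox1 and Onecut1 in every list, between the 94.2nd and the 98.7th percentile, a range that overlaps that of Hnf4a.

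The letters searched on both strands were FOXA TGTTTAC, HNF4 CAAAGTCC, C/EBP TTGCGCAA and TTGCACAA, and ONECUT ATCGAT and ATTGAT. In the 9 member promoters of 300 bases (250 before to 50 after a start, with P1 and P2 of Hnf4a), TGTTTAC was in 1, beside 3.11% of 22350 gene promoters, and ATTGAT in 2, beside 7.24%. The others were in 0, beside 1.47% for CAAAGTCC, 0.206% for TTGCGCAA, 0.944% for TTGCACAA and 0.877% for ATCGAT. In the middle 300 bases of the 7 strongest distal regions, ATTGAT was in 1, beside 10.4% of 90616 distal regions, and the others were in 0. Over whole regions, TGTTTAC occurred 1.09 times per 10 kb in the members' promoter regions, beside 1.29 in all promoter regions, and 1.44 times in their distal regions, beside 1.86. ATTGAT occurred 2.18 times, beside 2.36, and 2.40 times, beside 3.90. In promoter regions CAAAGTCC and ATCGAT had 3 matches each, 0.653 per 10 kb, beside 0.551 and 0.348 in all promoter regions. In distal regions CAAAGTCC had 1 match, 0.240 per 10 kb, beside 0.682, and ATCGAT had 0, beside 0.334. A match is only a run of letters, and its absence says nothing of the factor.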

How the data were processed

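H3K27ac ChIP-seq libraries of 20 livers and 4 inputs were merged by the authors, as the lists are described, into 1 peak list for each sex of each strain. As the methods state, uniquely mapped reads were aligned with Bowtie2, CAST coordinates were converted to mm9 and peaks were called with MACS2 against input, less known artefact regions. The authors deposited for each peak a score, a fold enrichment (a ratio over local background), a −log10 p-value and a −log10 q-value, of which the last was not used. The lists hold no read depth for single livers.

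The 8 genes, the other gene lists and the measures were chosen with earlier results of these data known. Named regions were, for each gene, the promoter and the distal region of highest score percentile in any list, every region called in 1 sex in both strains in the same direction or in both sexes of 1 strain only, and the 3 other sex-only regions of highest score percentile, besides those past 1.5-fold. The remaining named regions were chosen after their values were seen. Windows, transcript starts and sequences came from NCBIM37 (mm9) with the GENCODE vM1 annotation, in 1-based coordinates. Peaks of the 4 lists overlapping by at least 1 bp were merged into regions, whose class their covered bases took, and scores were turned into percentiles of their list. Summit coverage was the whole number of fragments, with its local background, that solved the fold enrichment and the p-value together to within 0.001 in −log10 p. It was tested on simulated peaks, of which 100% were recovered, and was added after the data were seen. Intervals are exact, at 95%. The tools were Python 3.11.15, pandas 2.3.3, numpy 2.4.6, scipy 1.17.1 and matplotlib 3.10.9. Alternatives were the window, list length, overlap, joining distance, promoter distance, summit coverage and regions nearest to a member's own start. Some items of the gene and motif lists are not reported here.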

Additional observations from a re-analysis of the deposited data

Results flagged for a closer look

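The results here are those in which the male to female ratio lay on opposite sides of 1 in the strains, among covered bases of each gene (all, promoter or distal regions), coverage of its strongest promoter and distal region, and sex-only calls. In each the difference between strains was not tested, since each group is 1 pooled list. At Foxa2 the male to female ratio of covered bases was 1.19 in B6 and 0.988 in CAST. At Cebpb it was 0.919 in B6 and 1.2 in CAST, and at Onecut1 0.964 and 1.12. For distal bases alone it was 0.594 in B6 and 1.33 in CAST at Cebpb, and for promoter bases alone 0.969 and 1.37 at Foxa1. Covered bases of all peaks had ratios of 1.05 in B6 and 1.12 in CAST. In coverage of the strongest promoter region the ratio was 0.965 in B6 and 1.35 in CAST at the start of Irf2bp1 in the Foxa3 window, 0.893 and 1.15 at Cebpa, 0.824 and 1.26 at Cebpb, and 0.92 and 1.21 at Prox1. It was 0.903 and 1.12 at the strongest distal region of Onecut1. Over all regions the median coverage ratio was 1.03 in B6 and 1.12 in CAST. By fold enrichment the Prox1 ratios were 0.877 and 0.934, both below 1, while the other 4 regions kept opposite sides. The region at the start of Foxa3 itself had log2 coverage ratios of 0.17 in B6 and 0.30 in CAST, on the same side. In CAST only the Irf2bp1 interval (1.17 to 1.56) lay above that median, and in B6 only the Cebpb interval (0.708 to 0.959) lay below 1. The intronic region of Onecut1 17.2 kb from the 5′ end was called in males and not in females in B6, at a relative coverage of 3.54, and in females and not in males in CAST, at 3.03, both below the median of all peaks in their lists.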

How the results depend on the processing

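No paired analysis was possible because the livers are pooled in each list. Of 91 alternative values for 17 results, 60 stayed within 1.5 times for counts, 0.1 on the log2 scale for ratios or the 95% exact binomial interval for the distal share (47.01 to 68.7%), 31 moved further. Among 40 alternative values of ratios, 3 crossed 1: the B6 male to female ratio of fold enrichment with summit coverage in its place (below), the CAST one with peaks joined (0.9916 in place of 1.001) and the female CAST to B6 ratio of covered bases with no flank (0.9819 in place of 1.018). The number of peaks (B6 males, B6 females, CAST males, CAST females) was 39, 44, 39 and 38 with no flank and 157, 156, 164 and 159 with 50 kb on each side, and 43 in B6 males, 47 in B6 females and 45 in CAST females in the top 50% of each list. There the CAST to B6 ratio of covered bases in males was 1.153. Sex-only regions in B6 numbered 17, and 8 with no flank, 33 with 50 kb, 3 in the top 50% and 10 with peaks up to 500 bp apart joined. In CAST they numbered 20, and 11, 37 and 10 in the first 3 of these settings and 12 with lists of equal length. Strain-only regions numbered 3 in each strain. In B6 they were 7 with 50 kb and 1 in the top 50%, and in CAST 8 with 50 kb, 5 when overlaps had to cover 50% of both peaks and 0 with peaks joined. The distal share was 58.14%, and 74.33% with 50 kb, 42% in the top 50% and 72.09% with promoters limited to 1 kb. With summit coverage in place of fold enrichment, chosen after seeing the data, the median male to female ratio was 1.102 in B6, turning its direction, and 1.211 in CAST, and the CAST to B6 ratio in males 1.18. Restricting to regions nearest to a member's own start was also chosen after seeing the data and kept the sex-only and strain-only counts within 1.5 times and the distal share at 58.9%. Causes were not tested. Depth per liver and the spread between livers limit every comparison, and the conversion of CAST coordinates limits those that use a CAST list.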
